A study of Homo sapiens with 4 samples.

Results

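Open chromatin was examined at the matrix metalloproteinase (MMP), ADAMTS and TIMP genes of MCF10A cells, an immortalized and non-tumorigenic line of breast epithelium. The members were the protein-coding genes of GENCODE release 44 whose symbol is MMP, ADAMTS or TIMP followed by digits alone. There were 45 of them among 19618 coding genes, namely 22 MMP, 19 ADAMTS and 4 TIMP genes. ATAC-seq, in which a transposase inserts adapters into accessible DNA, had been run on cells transduced with a tet-inducible TAZ-4SA, an active mutant of the transcriptional coactivator TAZ. Dox cells had received 0.05 µg/mL doxycycline for 72 h, whereas No Dox cells had received none and carried the same construct. Doxycycline and the TAZ-4SA that it induces cannot be told apart in this design. Each condition had 2 biological replicates of 50000 cells, which the authors pooled before peak calling, so each value below comes from 1 list per condition and has no replicate error. Read counts are not part of the lists, and the depth behind each sample is therefore unknown. No test and no p-value could be given.

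MMPs are zinc endopeptidases, mostly secreted as inactive proenzymes, that together can degrade most proteins of the extracellular matrix. ADAMTS proteases are secreted relatives that cleave proteoglycans or trim procollagens, and TIMPs are small proteins that block the active site of these enzymes. In breast epithelium they act on the basement membrane and on the stromal collagen around the ducts and acini.

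Each peak has a fold over background at its summit, as the peak caller gave it. The lowest fold was 2.71 in Dox and 2.54 in No Dox, and the median was 4.07 in Dox and 3.81 in No Dox. Peaks that overlapped or touched were merged into regions, which were Dox-unique, No-Dox-unique (together called condition-only) or shared. Each region went to the coding gene with the nearest transcription start site (TSS) of a coding transcript within 100 kb. The members took 335 of the 91655 regions assigned in this way. For shared regions and promoters, the ratio of the Dox fold to the No Dox fold was divided by the median ratio of all shared regions, 0.949, and is called the centred ratio. A centred ratio of at least 1.5 in either direction was counted as higher or lower. Every fold was a whole multiple of a step of 0.226 in Dox and 0.212 in No Dox, and the 95% interval beside a ratio takes 1 step as 1 read pair and covers counting error only. A fold cannot separate more cells with an open site from more signal per cell.

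Of the 45 members, 23 (51.1%) had a promoter peak, that is a peak within 1 kb of a coding TSS, in both lists. Another 19 (42.2%) had one in neither list, 2 had one with Dox alone and 1 had one without Dox alone. Over all coding genes the shares were 63.6% for both, 26.7% for neither, 5.75% for Dox alone and 3.98% for No Dox alone. Of 22 MMP genes, 6 had a promoter peak in both lists and 15 in neither, whereas 14 of 19 ADAMTS genes and 3 of 4 TIMP genes had one in both.

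**Figure D1:**
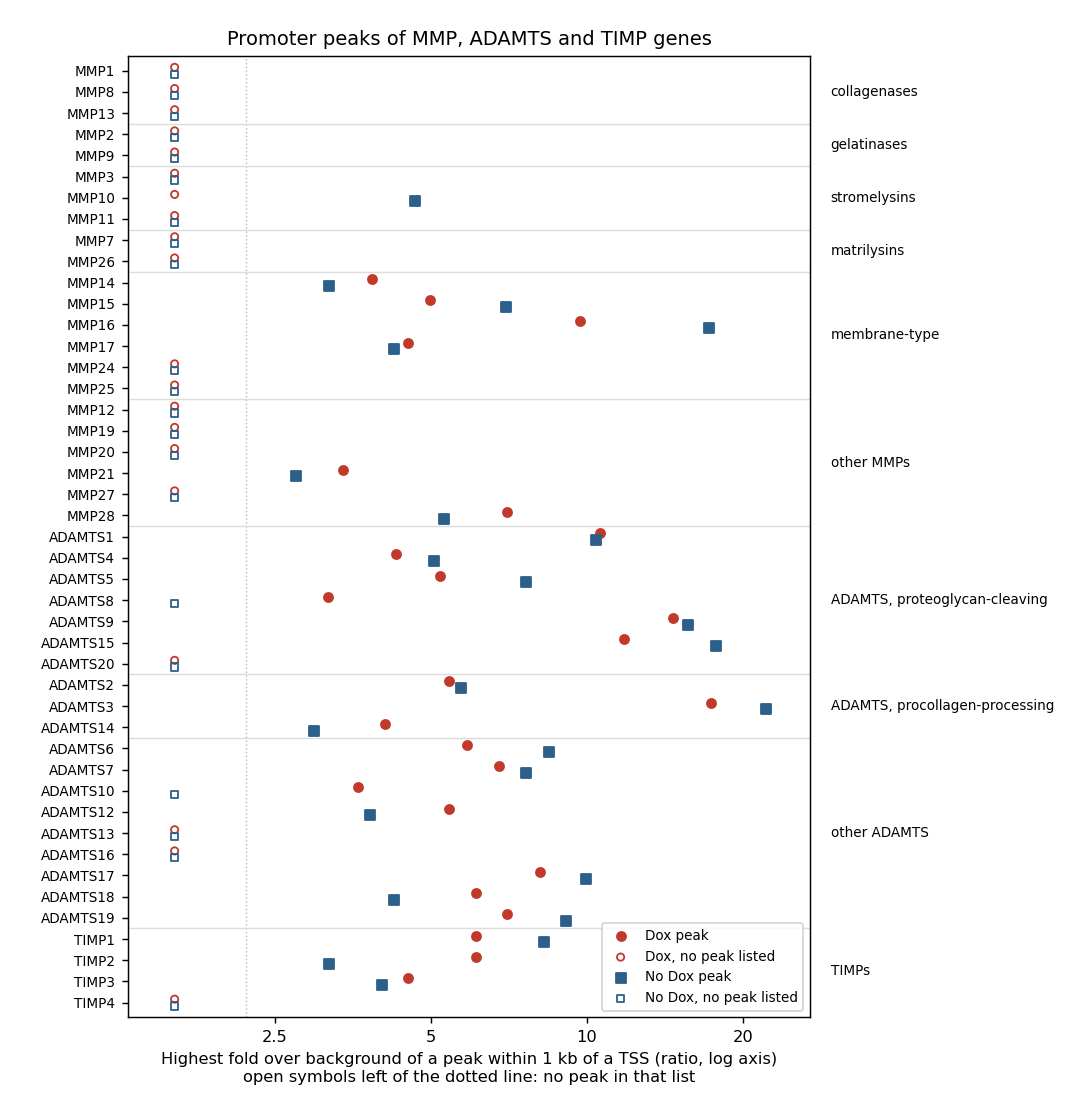
Highest fold of a peak within 1 kb of a coding TSS (x axis, ratio over background, log axis) for each of the 45 genes, by role, with Dox as circles and No Dox as squares; open symbols stand for no peak in that list. The collagenases, gelatinases and matrilysins have open symbols in both lists, while ADAMTS3, ADAMTS15, MMP16 and ADAMTS9 have the highest No Dox folds.

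The members with a changed promoter state were ADAMTS8, ADAMTS10 and MMP10. ADAMTS8, a protease of the proteoglycan-cleaving group, had a Dox peak of fold 3.16 that lay 0.311 kb from its TSS, and the nearest No Dox peak was 2.43 kb away. ADAMTS10, known for its role in fibrillin microfibrils, had a Dox peak of fold 3.62 at a distance of 0.216 kb from an internal start, and its nearest No Dox peak was 22.6 kb away. MMP10, or stromelysin-2, had no Dox peak within 18.6 kb, whereas a No Dox peak of fold 4.66 covered its TSS. Both Dox-alone peaks were below the median fold of the Dox list, and they stood at percentile 9.07 (ADAMTS8) and 29.0 (ADAMTS10) of it. With peaks of a q-value of at most 1e-05 alone, ADAMTS8 and ADAMTS10 had a promoter peak in neither list. The MMP10 peak stood at percentile 67.1 of the No Dox list. Farthest from a TSS among the members open in both lists were the peaks of MMP14, at 0.595 kb in Dox and 0.761 kb in No Dox. At MMP21, a protease with a role in left-right asymmetry, the state rests on separate neighbours, since Dox-unique regions of fold 3.39 and 2.94 flanked a No-Dox-unique region of fold 2.75 with no overlap. Nearest to the 1 kb limit on its outer side was a MMP26 peak in No Dox, 3.44 kb from a TSS, after the No Dox peak of ADAMTS8.

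Among the 23 members open in both lists, 3 had a centred ratio of at least 1.5 and 1 had one as far below. Over the 12474 coding genes open in both lists, 6.62% were higher with Dox and 5.92% lower by this measure. The median centred ratio was 0.988 for the members and 0.975 for all these genes. The highest was TIMP2, with a promoter fold of 6.10 in Dox and 3.18 in No Dox (centred ratio 2.02, 95% interval 1.04 to 4.10). ADAMTS18 had 6.10 in Dox and 4.24 in No Dox (1.52, 0.821 to 2.86), and ADAMTS12, a protease that cleaves cartilage oligomeric matrix protein, had 5.43 in Dox and 3.81 in No Dox (1.5, 0.781 to 2.93). The intervals of ADAMTS18 and ADAMTS12 include 1. The ADAMTS18 peak lay at an internal coding start. At the main start of that gene, 77435034 on chromosome 16, only a No Dox peak of fold 2.97 lay within 1 kb.

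MMP16, a membrane-type MMP, was the lowest, with 9.72 in Dox and 17.2 in No Dox (0.597, 0.403 to 0.875). Next came ADAMTS15, a versican- and aggrecan-cleaving protease, with 11.8 in Dox and 17.8 in No Dox (0.696, 0.483 to 0.996). ADAMTS5, the main aggrecanase of mouse cartilage, had 5.20 in Dox and 7.63 in No Dox (0.719, 0.407 to 1.25). The promoter of ADAMTS3, a procollagen protease, had the highest fold of all, 17.4 in Dox and 22.2 in No Dox, and a centred ratio of 0.825 (0.607 to 1.12), an interval that includes 1.

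The TIMP genes had 11 shared regions, of which 5 (45.5%), 4 at TIMP2 and 1 at TIMP4, had a centred ratio of at least 1.5 and 0 were as far below, with a median of 1.47. Over all assigned shared regions 10.8% were higher with Dox and 9.21% lower. TIMP2, which inhibits MMPs and also helps MMP14 to activate proMMP2, had 6 shared regions and no condition-only region. All 6 had a centred ratio above 1, from 1.13 to 2.17, and 4 of them passed 1.5. The strongest was chr17:78883075-78884226 in an intron, with a fold of 11.8 in Dox and 5.72 in No Dox (2.17, 1.34 to 3.59). Another intronic region, chr17:78862131-78862524, had 6.33 in Dox and 3.18 in No Dox (2.10, 1.08 to 4.23), and an upstream region, chr17:78933451-78934541, had 6.10 in Dox and 3.39 in No Dox (1.90, 0.987 to 3.77). The surroundings of TIMP2 moved in the same direction. Within 5 Mb of the gene the median centred ratio of shared regions was 1.28, 26% of them were at least 1.5 times higher with Dox, and 305 regions were Dox-unique against 34 No-Dox-unique. What the surroundings contribute to the TIMP2 ratios was not tested.

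TIMP3, which binds to the matrix and inhibits several ADAMTS and ADAM proteases as well as MMPs, had 4 Dox-unique, 1 No-Dox-unique and 1 shared region. The gene lies within SYN3, a synapsin gene. Its shared promoter region had a fold of 4.52 in Dox and 4.02 in No Dox (1.18, 0.600 to 2.35). The Dox-unique regions had folds of 6.33, 6.10, 4.07 and 3.84, at 1.53, 12.3, 56.0 and 21.4 kb from the TSS. The No-Dox-unique region, of fold 2.97, lay 0.873 kb from the TSS and 194 bp from the Dox-unique region of fold 6.33. The surroundings again leaned towards Dox, with 104 Dox-unique and 31 No-Dox-unique regions within 5 Mb. TIMP1, nested in SYN1, and TIMP4, nested in SYN2, are the other inhibitors. TIMP1 had a promoter fold of 6.10 in Dox and 8.26 in No Dox (0.779, 0.459 to 1.31) and 1 No-Dox-unique region of fold 3.81. TIMP4 had no promoter peak, and its 3 shared regions had centred ratios of 0.703, 0.945 and 1.90. It also had 1 No-Dox-unique region, with a fold no lower than the median of the No Dox list.

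TEAD factors bind DNA for TAZ, and their site was looked for as ACATTCC or GCATTCC on either strand, up to 100 bp from the summit of a region's strongest peak. The strongest TIMP2 region and both TIMP3 regions of fold above 6 held 1. They are shown here as the plus strand of hg38, with the site in capitals (read on the minus strand at TIMP2), because they are the TIMP regions that held this site. The other TIMP regions of fold 6.10 or 6.33 in Dox, 3 of TIMP2 and 1 each of TIMP1 and TIMP4, held none.
TIMP2, shared, chr17:78883593-78883649: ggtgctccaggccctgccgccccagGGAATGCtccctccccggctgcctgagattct
TIMP3, Dox-unique, chr22:32803611-32803667: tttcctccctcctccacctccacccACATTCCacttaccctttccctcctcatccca
TIMP3, Dox-unique, chr22:32789083-32789139: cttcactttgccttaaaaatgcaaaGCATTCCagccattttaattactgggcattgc
The middle base of the site lay 41 bp before the summit at TIMP2 (-41 bp) and 96 and 60 bp after it at TIMP3. A match of letters is a description and says nothing of binding.

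**Figure D2:**
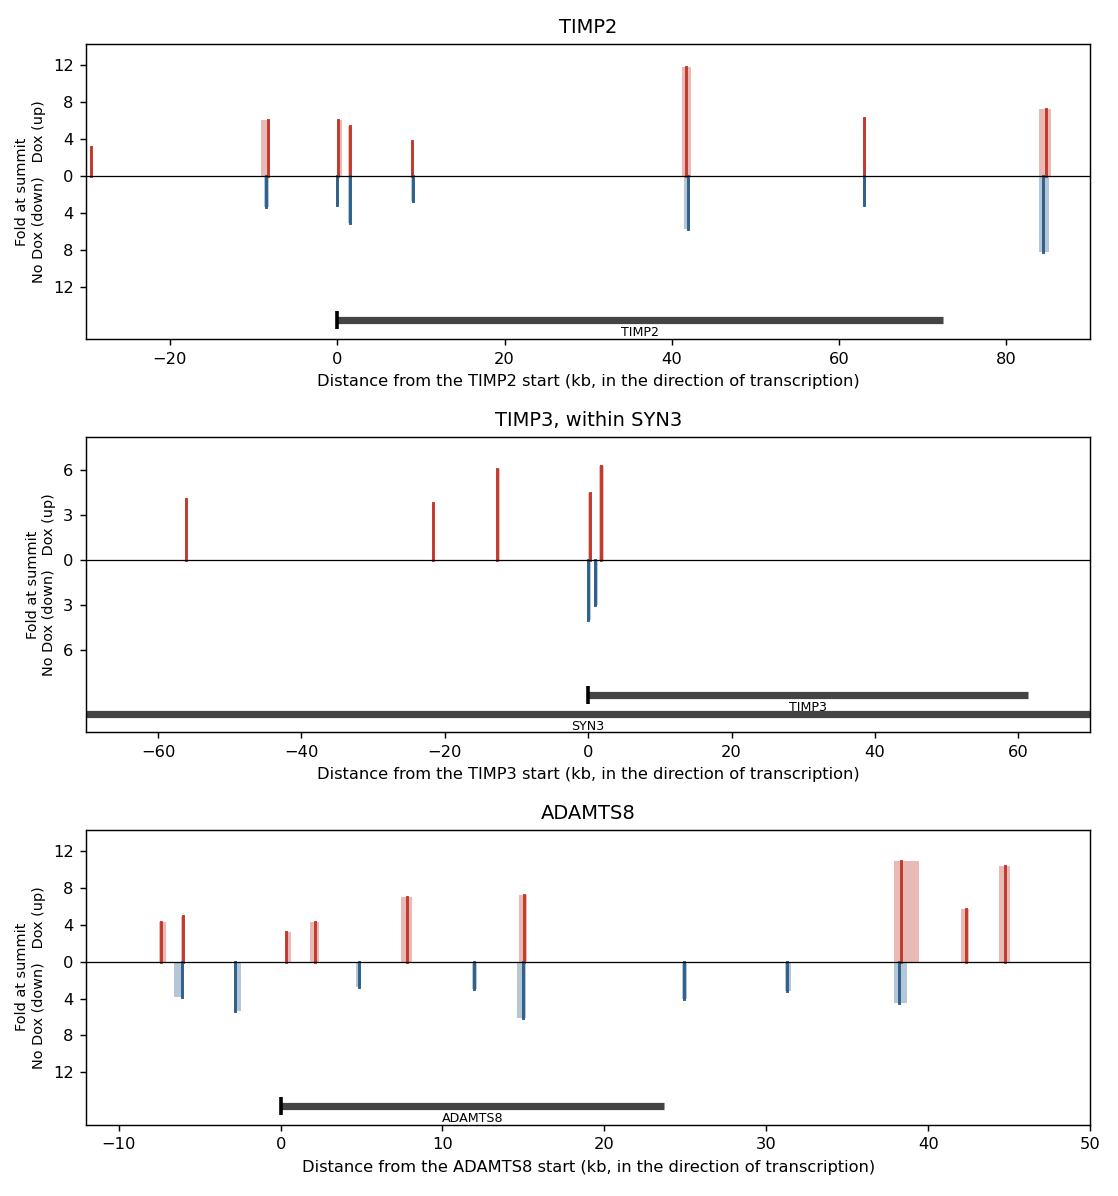
Peaks around TIMP2, TIMP3 and ADAMTS8 (x axis, distance from the gene's main start in kb; y axis, fold at the summit, Dox upward and No Dox downward), with shading for peak width, bars for genes and ticks for starts. All 6 TIMP2 regions are present in both lists, the TIMP3 regions upstream of the promoter are in Dox alone, and the far side of ADAMTS8 has Dox peaks of fold 10.9 and 10.4.

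The collagenases MMP1, MMP8 and MMP13, which cut fibrillar collagen, the gelatinases MMP2 and MMP9, and the matrilysins MMP7 and MMP26 had no promoter peak in either list. MMP1 and MMP8 were also nearest to no region at all, as were MMP11, MMP24 and MMP25, so that 40 of the 45 members had a region. MMP2, which degrades type IV collagen, had 2 Dox-unique, 1 No-Dox-unique and 3 shared regions. Its Dox-unique region chr16:55367499-55368416, 21.3 kb from the nearest coding TSS, had a fold of 10.2, and the nearest No Dox peak was 37499 bp away. It was the second highest of the 59 Dox-unique regions. MMP9, the other gelatinase, had a No-Dox-unique region of fold 4.66 in an exon and a shared region 14.9 kb away with 5.88 in Dox and 7.20 in No Dox (0.860, 0.496 to 1.48).

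A cluster of 9 MMP genes at 11q22 runs from MMP7 to MMP13 over 435 kb, chr11:102520508-102955732, and holds all 3 collagenases with MMP3, MMP10, MMP12, MMP20 and MMP27. This span held 10 Dox peaks and 15 No Dox peaks, where the whole lists held 84353 and 117740. Of the 9 genes, MMP10 was the exception in having a promoter peak, in No Dox alone. The cluster genes had 2 Dox-unique, 7 No-Dox-unique and 10 shared regions, and within 5 Mb of MMP10 there were 73 Dox-unique and 345 No-Dox-unique regions. The shared regions did not move together. Upstream of MMP3, or stromelysin-1, chr11:102850932-102851700 had a fold of 7.91 in Dox and 4.45 in No Dox (1.87, 1.06 to 3.39), while its neighbour chr11:102849031-102849892 had 7.91 in Dox and 7.20 in No Dox (1.16, 0.701 to 1.91). Upstream of MMP13, or collagenase 3, a region had 5.65 in Dox and 3.81 in No Dox (1.56, 0.819 to 3.04).

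In MMP20, the enamel protease enamelysin, the intronic region chr11:102599379-102600276 was lower, with 3.62 in Dox and 7.84 in No Dox (0.486, 0.253 to 0.896). Downstream of MMP10, chr11:102760464-102760879 was lower, with 3.16 in Dox and 6.57 in No Dox (0.508, 0.250 to 0.984). Next to it, 582 bp from a No Dox peak, chr11:102761430-102762057 was Dox-unique with a fold of 5.88. The MMP10 neighbourhood thus had a promoter peak and a stronger distal peak in No Dox and a distal peak of its own in Dox. Regions of MMP12, or macrophage elastase, had centred ratios of 0.728 to 1.18, and that of MMP7 had 0.929.

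AP-1, the dimer of FOS and JUN proteins, is a known regulator of MMP1, MMP3 and other genes of this cluster, and its site was looked for as TGACTCA or TGAGTCA in the same windows. Both shared MMP3 regions, the MMP20 region, 2 of the 3 shared MMP12 regions and both shared regions upstream of MMP13 held it, as did No-Dox-unique regions of MMP3 and MMP13. Over all members, those of the cluster included, the AP-1 site was in 25 of the 140 shared regions (17.9%). This was near the 16.8% of the shared regions of all genes. The TEAD site was in regions of every class, namely the Dox-unique region next to MMP10, the No-Dox-unique region at the MMP10 promoter, and 1 No-Dox-unique and 1 shared region of MMP12. The sequences shown are examples of AP-1 sites in shared regions that were higher, lower or little changed with Dox, and the TEAD site of the one strong Dox-unique region of the cluster. The lower shared region downstream of MMP10 (0.508) held neither site and is not shown. Capitals mark the AP-1 site, or the TEAD site (on the minus strand) for MMP10.
MMP3, shared and higher in Dox, chr11:102851504-102851560: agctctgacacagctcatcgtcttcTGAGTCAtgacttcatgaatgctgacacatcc
MMP3, shared, chr11:102849443-102849499: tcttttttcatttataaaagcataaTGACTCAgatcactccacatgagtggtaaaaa
MMP13, shared and higher in Dox, chr11:102996401-102996457: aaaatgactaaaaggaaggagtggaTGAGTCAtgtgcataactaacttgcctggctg
MMP20, shared and lower in Dox, chr11:102599755-102599811: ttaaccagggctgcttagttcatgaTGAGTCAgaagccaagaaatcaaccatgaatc
MMP10, Dox-unique, chr11:102761733-102761789: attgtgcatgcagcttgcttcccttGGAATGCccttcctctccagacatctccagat
Among cluster regions past the limit of 1.5, the AP-1 site was thus present in both that were higher and in 1 of the 2 that were lower with Dox. RefSeq promoters (GRCh38.p14, 250 bases before to 50 after a start) were matched for 26 of the 45 members. Those of MMP1, MMP3, MMP12 and MMP13 were not among the 26 and were not searched. In the 26 AP-1 was found in 1, that of MMP7 at position -67, against 4.92% of all 27305 promoters, and a TEAD site in 0, against 6.64%.

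**Figure D3:**
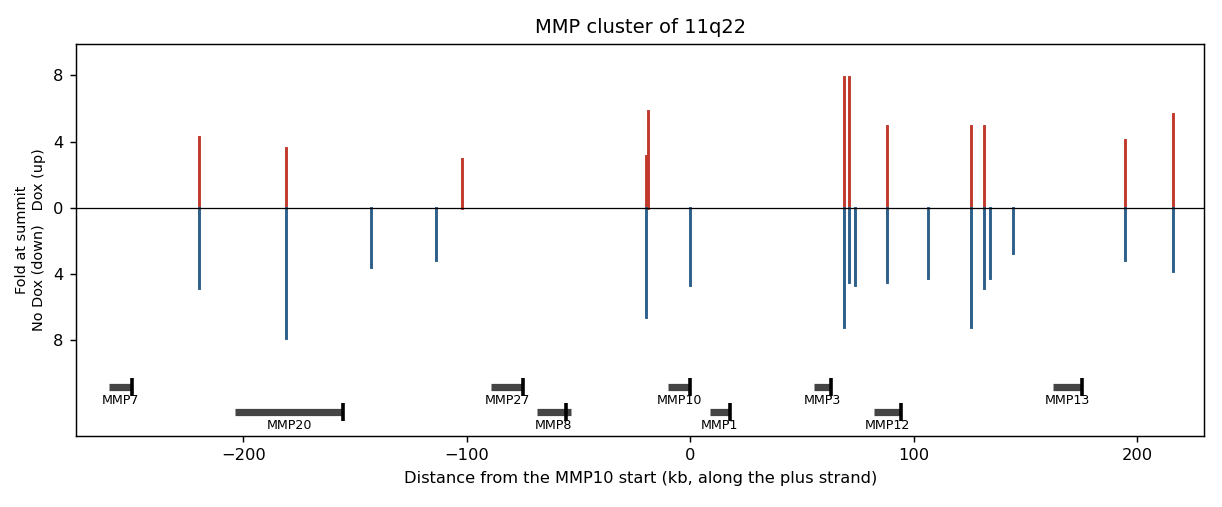
Peaks of the 11q22 MMP cluster (x axis, distance from the MMP10 start in kb along the plus strand; y axis, fold at the summit, Dox upward and No Dox downward), with bars for the 9 genes and ticks for their starts. A peak stands at the MMP10 start in No Dox alone, and the peaks between MMP3 and MMP12 reach 7.91 in Dox and 7.20 in No Dox.

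Of the membrane-type MMPs, MMP14, MMP15, MMP16 and MMP17 had a promoter peak in both lists, and MMP24 and MMP25 in neither. MMP14, which cleaves collagen at the cell surface and activates proMMP2, had no condition-only region, and its 3 shared regions had centred ratios from 0.888 to 1.27. MMP15 had 3 Dox-unique and 0 No-Dox-unique regions, with folds of 4.97, 4.29 and 3.84. MMP17, anchored to the membrane by a lipid tail, had 6 Dox-unique and 3 No-Dox-unique regions, and none of these 9 was strong, that is with a fold no lower than its list's median.

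Most regions of MMP16 were lower in Dox or absent from its list. Besides the promoter, an intronic region at chr8:88239400-88240394 had a fold of 4.75 in Dox and 11 in No Dox (0.454, 0.260 to 0.767). The gene had 1 Dox-unique region of fold 4.07 and 5 No-Dox-unique regions, of which chr8:88243444-88244168 with 10.4 was the highest No-Dox-unique region of any member. Within 5 Mb of MMP16 there were 53 Dox-unique and 363 No-Dox-unique regions, and the median centred ratio of shared regions was 0.934.

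Among the other MMPs, MMP19 had 1 region, shared, with 10.2 in Dox and 5.30 in No Dox (2.02, 1.22 to 3.45), 4.70 kb upstream of its TSS. MMP28, or epilysin, a protease of epithelia, had 5 shared regions that went apart. Its promoter had 7.01 in Dox and 5.30 in No Dox (1.39, 0.797 to 2.46), and an intronic region, chr17:35784757-35785341, had 2.94 in Dox and 7.20 in No Dox (0.430, 0.208 to 0.836), the lowest centred ratio of any member.

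The proteoglycan-cleaving ADAMTS genes held 3 of the 5 Dox-unique regions of highest fold. The 7 genes had 15 Dox-unique, 14 No-Dox-unique and 17 shared regions, and among strong ones 11 were Dox-unique and 6 No-Dox-unique. ADAMTS8 and ADAMTS1 gave 9 of the 11. The Dox-unique share of the condition-only regions was 51.7% (32.5 to 70.6), against 42.8% over all genes. Among strong regions it was 64.7% (38.3 to 85.8), against 39.9%. Both intervals include the share of all genes. ADAMTS8 had 6 Dox-unique, 5 No-Dox-unique and 3 shared regions, with 5 and 2 among the strong ones. Its Dox-unique regions chr11:130383544-130384217 and chr11:130420482-130421149 had folds of 10.4 and 7.01, and the first was the highest Dox-unique region of any member. The shared region chr11:130389192-130390729, 37.9 kb downstream of the TSS, had 10.9 in Dox and 4.45 in No Dox (2.57, 1.51 to 4.52), the largest centred ratio of all 140 shared regions. Its surroundings went the other way, with 111 Dox-unique and 523 No-Dox-unique regions within 5 Mb (17.5% Dox-unique) and a median centred ratio of 0.926. None of the 14 regions of ADAMTS8 held a TEAD site.

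ADAMTS1, a protease of versican and aggrecan, had 4 Dox-unique, 2 No-Dox-unique and 3 shared regions. Its Dox-unique regions had folds of 7.69, 6.10, 4.29 and 4.07, all strong, and its No-Dox-unique regions had 4.24 and 3.60. The promoter, 3880 bp wide, had 10.6 in Dox and 10.4 in No Dox (1.08, 0.708 to 1.64). Within 5 Mb there were 45 Dox-unique and 91 No-Dox-unique regions. The Dox-unique region of fold 6.10, 28.1 kb downstream of the nearest start, held a TEAD site, and it is given as the ADAMTS1 example with the site in capitals (minus strand).
ADAMTS1, Dox-unique, chr21:26814504-26814560: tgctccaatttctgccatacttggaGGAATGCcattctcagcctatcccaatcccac
ADAMTS5, the neighbour of ADAMTS1, had 1 Dox-unique region of fold 3.39 and No-Dox-unique regions of fold 8.90 and 5.51. ADAMTS9 had 3 Dox-unique regions of fold 4.75, 4.07 and 3.62 and 1 No-Dox-unique region of fold 6.35, with a promoter of 14.7 in Dox and 15.7 in No Dox (0.988, 0.697 to 1.40).

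ADAMTS15 lies next to ADAMTS8 and had 6 shared and no condition-only regions. From its TSS outwards the centred ratios were 0.696, 0.670, 0.637, 1.19, 1.53 and 1.88, the last at 87.3 kb with 6.78 in Dox and 3.81 in No Dox (1.01 to 3.57). The 3 regions nearest to the gene were thus below 1 and the 3 farthest above 1. However, the intervals of all regions between the first and the last include 1 (0.391 to 1.12, 0.393 to 1.01, 0.590 to 2.40 and 0.726 to 3.29). Regions on either side held the AP-1 site, among them those at 73.2 kb (lower by the limit of 1.5, with an interval that includes 1) and at 87.3 kb (higher).
ADAMTS15, shared and lower in Dox, chr11:130522374-130522430: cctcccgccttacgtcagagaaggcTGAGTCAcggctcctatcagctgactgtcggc
ADAMTS15, shared and higher in Dox, chr11:130536734-130536790: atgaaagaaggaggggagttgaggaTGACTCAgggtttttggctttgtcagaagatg

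**Figure D4:**
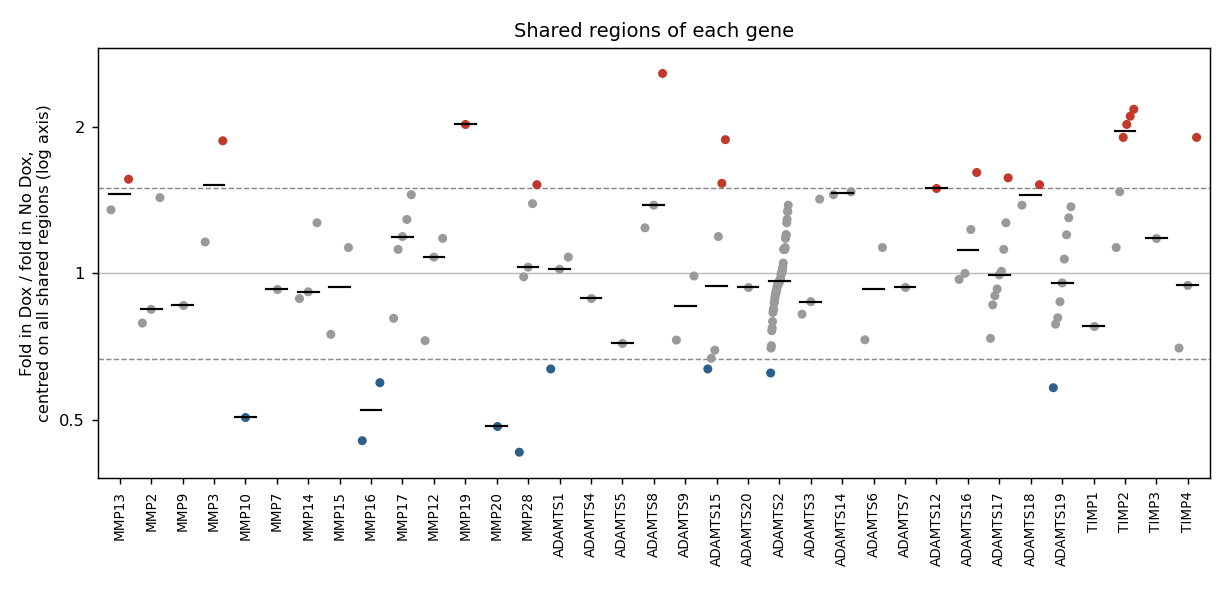
Centred ratio of the Dox fold to the No Dox fold (y axis, log axis) for each of the 140 shared regions, by gene in the order of roles, with a black line at the median of a gene and dashed lines at the limit of 1.5 in both directions. The 16 regions above the upper line include 4 of TIMP2 and that of ADAMTS8 at 2.57, and the 9 below the lower line include both of MMP16.

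The procollagen proteases ADAMTS2, ADAMTS3 and ADAMTS14, which remove the amino-terminal propeptide of fibrillar procollagens, all had a promoter peak in both lists. ADAMTS2 had 77 regions, more than any other member, and 0.270% of coding genes had as many. There were 4 Dox-unique, 26 No-Dox-unique and 47 shared regions, and they formed a stretch of 196 kb, chr5:179249834-179445700, of which peaks covered 38.0% in Dox and 59.3% in No Dox. No fold in this stretch was above 7.46 in Dox or 6.99 in No Dox. The peaks were wide, with a median of 782 bp in Dox and 732 bp in No Dox, against 482 and 491 bp over the whole Dox and No Dox lists. The centred ratios of the shared regions ran from 0.625 to 1.38 with a median of 0.964, and by the limit of 1.5 there were 0 higher and 1 lower. Less of this stretch was called in Dox, 74.4 kb against 116 kb in No Dox. The whole lists differed in the same direction, with 54.5 Mb covered in Dox and 78.4 Mb in No Dox. The ADAMTS2 promoter, with 5.43 in Dox and 5.72 in No Dox, had a centred ratio of 1 (0.552 to 1.80). The 4 Dox-unique regions had folds of 2.94 to 3.84, and 11 of the 26 No-Dox-unique regions were strong, up to 5.51.

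ADAMTS19, a protease with a role in heart valves, had the most condition-only regions, 6 Dox-unique and 30 No-Dox-unique, with 9 shared. Its Dox-unique regions had folds of 2.94 to 3.62, none strong, and 11 of its No-Dox-unique regions were strong, up to 5.51. They spanned 194 kb on both sides of the promoter, which had 7.01 in Dox and 9.11 in No Dox (0.811, 0.494 to 1.32). ADAMTS16 had 3 Dox-unique and 13 No-Dox-unique regions, and the highest of these, of fold 6.78, was Dox-unique and lay 95.5 kb upstream. Its 4 shared regions included chr5:5126172-5126913, with 11.5 in Dox and 12.5 in No Dox (0.972, 0.655 to 1.44). ADAMTS16 had no promoter peak. ADAMTS18 had 1 Dox-unique and 12 No-Dox-unique regions, and the shared region 8.72 kb from an internal start had the highest Dox fold of any member, with 23.1 in Dox and 17.6 in No Dox (1.38, 1.02 to 1.87). ADAMTS17 had 1 Dox-unique and 7 No-Dox-unique regions. ADAMTS6 had 0 Dox-unique and 2 No-Dox-unique regions, the higher with a fold of 9.11.

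These genes were described above for their No-Dox-unique regions, so a low Dox-unique share follows in part from that choice. The Dox-unique share of their condition-only regions was below that of the surroundings. It was 13.3% at ADAMTS2, against 45.8% within 5 Mb (416 Dox-unique and 493 No-Dox-unique regions). At ADAMTS19 it was 16.7%, against 44.7% around the gene, and at ADAMTS18 it was 7.69%, against 29.8%. ADAMTS17 had 12.5%, against 34.3% around it, and ADAMTS6, with 2 condition-only regions, had 0%, against 33.1%. The gap was smallest at ADAMTS16, with 18.8% at the gene, against 23.2% around it. Other ADAMTS genes with condition-only regions went either way. The share was above the surroundings at ADAMTS1 (66.7% against 33.1%), ADAMTS8 (54.5% against 17.5%) and ADAMTS9 (75.0% against 28.4%). With few condition-only regions, it was also above at ADAMTS10 (2 regions), ADAMTS12 (4) and ADAMTS13 (1), and below at ADAMTS3 (2) and ADAMTS20 (5). ADAMTS5 (33.3% against 34.8%) and ADAMTS14 (66.7% against 67.1%), with 3 such regions each, were about level with their surroundings.

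**Figure D5:**
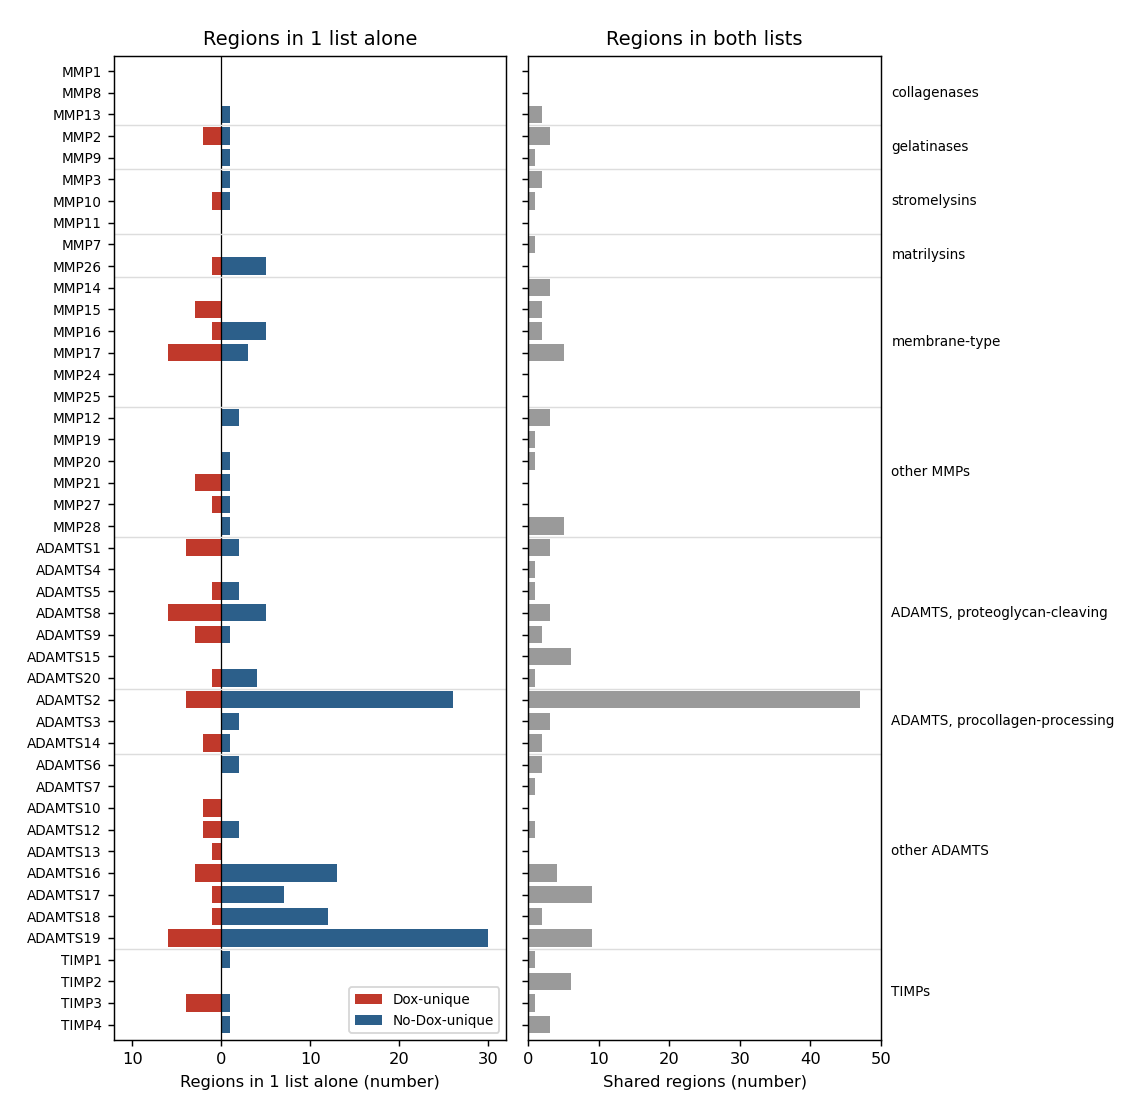
Number of regions assigned to each gene by role, with condition-only regions on the left (Dox-unique to the left of 0, No-Dox-unique to the right) and shared regions on the right. ADAMTS19 and ADAMTS2 have 30 and 26 No-Dox-unique regions, and ADAMTS8 and MMP17 have the longest Dox-unique bars beside ADAMTS19, with 6 each.

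Over all members, 59 regions (17.6%) were Dox-unique, 136 (40.6%) No-Dox-unique and 140 (41.8%) shared. Over all assigned regions the shares were 26.6% Dox-unique, 35.5% No-Dox-unique and 38.0% shared. Dox-unique regions were 30.3% of the members' condition-only regions (95% Clopper-Pearson interval 23.9 to 37.2), against 42.8% over all genes (42.4 to 43.2). The difference came with the 5 members on chromosome 5, ADAMTS2, ADAMTS6, ADAMTS12, ADAMTS16 and ADAMTS19. They had 15 Dox-unique and 73 No-Dox-unique regions (17.0%, 9.87 to 26.6). Most of these were at ADAMTS19 (6 Dox-unique and 30 No-Dox-unique), ADAMTS2 (4 and 26) and ADAMTS16 (3 and 13). ADAMTS12 had 2 and 2 and ADAMTS6 had 0 and 2, whereas ADAMTS18, on chromosome 16, had 1 and 12. Over all genes of chromosome 5 the Dox-unique share was 39.4%. Without the 5 members on chromosome 5, a choice made after the counts were seen, the others had 44 Dox-unique and 63 No-Dox-unique regions, or 41.1% (31.7 to 51.0). Regions of a gene lie side by side, so that these intervals, which take them as independent, are too narrow. Of the 33 members with a condition-only region, 11 had more Dox-unique, 19 more No-Dox-unique and 3 as many of each.

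Strong regions gave 22 Dox-unique and 53 No-Dox-unique ones (29.3% Dox-unique, 19.4 to 41.0). The same share over all genes was 39.9%, inside this interval, and it was 42.6% (28.3 to 57.8) for the members not on chromosome 5. Of all assigned regions, 7.73% were strong and Dox-unique and 11.7% strong and No-Dox-unique. At folds of 8 or more there were 2 Dox-unique regions, at ADAMTS8 and MMP2, and 4 No-Dox-unique regions, at MMP16, ADAMTS18, ADAMTS6 and ADAMTS5, where all genes together had 448 Dox-unique and 403 No-Dox-unique regions. Of the 140 shared regions, 16 (11.4%) were higher with Dox and 9 (6.43%) lower, near the 10.8% and 9.21% of all shared regions. The other list had a peak within 500 bp of 10 of the 59 Dox-unique and 14 of the 136 No-Dox-unique regions.

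By the median, the members' regions lay farther from a coding TSS than those of all genes. The median distance to the nearest coding TSS was 21.2 kb for Dox-unique, 38.5 kb for No-Dox-unique and 23.2 kb for shared regions, against 15.4, 28.4 and 8.16 kb in these classes over all genes. Within 10 kb lay 39.0%, 19.1% and 35.7% of the members' regions in these classes, against 40.4%, 25.4% and 52.5% over all genes. ADAMTS2 alone gave 47 of the 140 shared regions. Introns of the members held 24 of the 59 Dox-unique, 63 of the 136 No-Dox-unique and 52 of the 140 shared regions.

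TEAD sites were in 7 of the 59 Dox-unique regions (11.9%, 4.91 to 22.9) and 8 of the 136 No-Dox-unique regions (5.88%, 2.57 to 11.3) of the members. The shares over all genes were 12.6% and 5.66%. AP-1 sites were in 1 of the 59 Dox-unique regions (1.69%, 0.0429 to 9.09), at ADAMTS16, and in 23 of the 136 No-Dox-unique regions (16.9%, 11 to 24.3), against 7.76% and 13.3% over all genes. Among strong regions TEAD was in 5 of 22 Dox-unique and 3 of 53 No-Dox-unique regions, and AP-1 in 0 of 22 Dox-unique (0 to 15.4%) and 16 of 53 No-Dox-unique regions (30.2%, 18.3 to 44.3). The TEAD counts, 22.7% and 5.66%, were near the 24.4% and 5.71% of strong Dox-unique and No-Dox-unique regions of all genes, and for AP-1 those shares were 13.4% and 23.9%. The reversed TEAD letters CCTTACA or CCTTACG, a control, were in 3.39% of Dox-unique and 2.94% of No-Dox-unique regions. The RUNX core TGTGGT was in 13.6% of Dox-unique and 15.4% of No-Dox-unique regions. The ETS core AGGAAG was in 28.8% of Dox-unique (17.8 to 42.1) and 13.2% of No-Dox-unique regions (8.04 to 20.1), where all genes had 24.3% and 23.3%.

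The No-Dox-unique regions with AP-1 included 4 at ADAMTS16, 3 each at ADAMTS18 and MMP16, and 2 each at ADAMTS2 and ADAMTS19. Those of highest fold at ADAMTS18 and ADAMTS2, 9.11 and 5.51, are shown with the site in capitals.
ADAMTS18, No-Dox-unique, chr16:77308371-77308427: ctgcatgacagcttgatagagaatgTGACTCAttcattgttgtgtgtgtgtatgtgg
ADAMTS2, No-Dox-unique, chr5:179393254-179393310: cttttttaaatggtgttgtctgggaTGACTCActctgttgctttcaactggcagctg
At ADAMTS12, a Dox-unique region of fold 6.33 in an intron held a TEAD site, and so did the nearest No-Dox-unique region, of fold 3.18. The first is shown.
ADAMTS12, Dox-unique, chr5:33834543-33834599: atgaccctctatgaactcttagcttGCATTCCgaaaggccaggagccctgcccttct
This region lay 57.0 kb from the TSS, 5886 bp from the No-Dox-unique one.

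Other genes of pericellular proteolysis kept their promoter state. Of 24 listed genes of the plasminogen system, the ADAM and tolloid proteases, the cathepsins and the cell-surface inhibitors, 21 had a promoter peak in both lists and 3 (A2M, PLG and CTSK) in neither. FURIN, which activates membrane-type MMPs, was higher with 5.88 in Dox and 3.81 in No Dox (centred ratio 1.63), and ADAM12 was lower with 3.84 in Dox and 6.35 in No Dox (0.637). RECK, a membrane inhibitor of MMPs, had 3.84 in Dox and 3.60 in No Dox (1.13). These genes had 31 Dox-unique and 41 No-Dox-unique regions (43.1% Dox-unique, 31.4 to 55.3).

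The cell type of the label was checked by promoter state. Of 10 markers of mammary and basal epithelium, 7 had a promoter peak in both lists, as did 63.6% of all coding genes. KRT6A and TP63 had one with Dox alone and KRT14 had one in neither. The count of 7 of 10 is near the share of all genes and does not by itself mark the cells as epithelial. Among the endothelial markers 4 of 5, and among the immune markers 4 of 6, had none in either list, against 26.7% of all coding genes. The endothelial marker KDR and the immune marker CD14 had one in both lists, and the immune marker CD79A with Dox alone. Fibroblast markers had a peak in both lists in 3 of 8 cases, with Dox alone for PDGFRA and No Dox alone for COL1A2 and DCN.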

How the data were processed

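Peaks of the ATAC-seq experiment came as 1 list for Dox and 1 for No Dox, each from 2 biological replicates that had been pooled. Alignment by the authors used BWA and hg38, and MACS2 called the peaks (FDR 0.05). The fold of each peak is a ratio to background that the authors deposited. A −log10 q-value, also deposited, served to shorten lists, and the deposited score, a whole-number form of it, was not used. Depth per sample is unknown from the lists.

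Peaks of chromosomes 1 to 22 and X were merged and assigned with GENCODE release 44 as described above; a region was strong if a peak reached the median fold of its list. Intervals were 95% Clopper-Pearson. Sequences came from hg38 (pysam 0.24.0, samtools 1.23.1) and RefSeq. MMP23B ends in a letter and was left out. Named were members with a changed promoter state, the 8 with most condition-only regions, the 3 with the largest promoter ratio in each direction, the TIMPs, the 11q22 MMPs and the members of the 5 highest condition-only regions in each direction; others were named after their values were seen. The members, lists and tests were chosen with earlier results of these data known. Region classes, gene assignment, promoter states, motif calls and the step of the folds were checked on simulated data, and the ratios were not. Computations used matplotlib 3.10.9, scipy 1.17.1, pandas 2.3.3 and numpy 2.4.6 under Python 3.11.15.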

Additional observations from a re-analysis of the deposited data

How the results depend on the processing

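No paired analysis was possible because the replicates of each condition were pooled into 1 list, and for the same reason no replicate could be left out. Over the other settings for thresholds, distances, transcripts, merging, scaling and motif windows, 65 values stayed close to the reported ones and 26 moved, and of those chosen after the counts were seen (without chromosome 5) 4 stayed close and 4 moved. Keeping only the No Dox peaks of best q-value, as many as in the Dox list, gave 6 members with a promoter peak in Dox alone, among them TIMP2, 83 No-Dox-unique regions and a Dox-unique share of 46.5% (all genes 57.7%). A promoter limit of 3 kb left 1 member with Dox alone, since ADAMTS8 then had peaks in both lists. With the canonical transcript, 1 member had a promoter peak in Dox alone and 2 in No Dox alone (ADAMTS18 and MMP10), and ADAMTS10 had none. A q-value of at most 1e-05 gave 39 Dox-unique, 70 No-Dox-unique and 82 shared regions, of which 7 were higher and 3 lower with Dox, and the promoter peaks of ADAMTS8 and ADAMTS10 were lost, while ADAMTS12, ADAMTS14 and TIMP2 had one in Dox alone. Strong regions numbered 22 Dox-unique and 53 No-Dox-unique, with AP-1 in 0% and 30.2%. A TSS within 20 kb gave 28 Dox-unique, 46 No-Dox-unique and 64 shared regions and a Dox-unique share of 37.8% (all genes 51.3%). Starts of all transcripts gave 211 No-Dox-unique regions, and MMP11 then had a promoter peak in both lists. Without the members on chromosome 5 there were 63 No-Dox-unique and 77 shared regions, a Dox-unique share of 41.1% and AP-1 in 0% of Dox-unique regions. Without centring 10 shared regions were higher with Dox, and at a ratio of 2 there were 5 higher and 3 lower. TEAD was in 2.21% of No-Dox-unique regions within 50 bp of the summit, and over the whole peak in 25.4% of Dox-unique and 18.4% of No-Dox-unique regions. The cause of these moves was not tested, apart from shorter lists and fewer members giving fewer regions. The Dox-unique share of the members was below that of all genes in each of these settings, by least without chromosome 5. Among strong regions without chromosome 5 it was above, 42.6% against 39.9%. With 1 list per condition, differences between replicates cannot be seen, and a peak just under the threshold of 1 list makes a region condition-only.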

Other observations

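The ADAMTS-like genes, which share the ancillary domains of ADAMTS proteases but lack the protease domain, were examined beside the members. Of 5 such genes, ADAMTSL3, ADAMTSL4 and ADAMTSL5 had a promoter peak in both lists, ADAMTSL1 had one of fold 2.75 in No Dox alone and ADAMTSL2 had none. ADAMTSL4, a fibrillin-binding protein, had 9.49 in Dox and 6.14 in No Dox (centred ratio 1.63), ADAMTSL5 had 6.56 in Dox and 4.45 in No Dox (1.55), and ADAMTSL3 had 12.9 in Dox and 13.6 in No Dox (1.0). These genes had 12 Dox-unique, 15 No-Dox-unique and 13 shared regions, and 4 of the shared regions were higher and 2 lower with Dox. MMP26 had 1 Dox-unique and 5 No-Dox-unique regions, with folds of 2.75 to 3.60 and none strong, within a gene that spans the olfactory receptor cluster of 11p15.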
